A study of Bos taurus with 32 samples.

Results

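Bovine embryos produced in vitro and collected at 9-16 cells were compared between culture with FGF2, LIF and IGF1, a mix of 3 cytokines abbreviated FLI, and control culture without it. The comparison takes every library that the labels place at this stage, 4 FLI and 4 control, which is 8 of the 32 libraries of the series. Each library is RNA from a pool of 15 embryos, purified by PicoPure, from which cDNA was made by SMART-Seq v4. The labels give neither cytokine doses nor the time of addition, and they do not say whether pools came from separate cultures, so p-values measure only the spread between these pools. Libraries carry the replicate numbers 10, 11, 12 and 13 in both groups, and values are listed in that order.

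The bovine embryo activates its own genome at about this stage, while RNA left by the oocyte is cleared. FGF2 signals through FGF receptors and the ERK kinases, which induce phosphatases and Sprouty proteins that damp the pathway. LIF signals through LIFR and IL6ST to STAT3, which induces SOCS feedback inhibitors and, in mouse stem cells, pluripotency factors. IGF1 signals through IGF1R to AKT, which keeps FOXO factors out of the nucleus. Which of the embryo's transcripts differ when all 3 ligands are supplied is the question that this comparison addresses.

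Depth was 11776573 to 41652195 recovered reads in FLI libraries and 7013325 to 50644350 in controls. Control replicate 11, the deepest library, stood apart from the other 7. Its correlation with them across genes (log2 scale) was 0.855 to 0.895, against 0.958 to 0.987 among all other pairs, and it lay more than 1 log2 unit from the mean of the other controls in 4370 of 14139 genes. Fragments annotated from rRNA took 0.118% of its reads, against 4.30% to 7.17% in FLI libraries and 4.00% to 6.19% in the other controls. Short genes were relatively more abundant in it: the mean log2 level of genes of at most 1548.5 bases minus that of genes of at least 3646 bases was -0.05, against -1.14 to -0.94 in FLI libraries and -1.09 to -0.96 in the other controls. Called counts, list medians and gene values that it moves by more than 1.5 times are therefore also given without it, as "the 3 other controls" where a group mean is meant. For some genes only the mean of the 3 other controls is given. The part of these library differences in the results was not tested beyond leaving control replicate 11 out.

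Stage markers were read on a scale of CPM normalised over 3 stages. KLF17, a KLF-family factor expressed at genome activation, was highest at 9-16 cells, with 601 ± 154 CPM in FLI embryos and 429 ± 250.5 in controls (537 ± 155 in the 3 other controls). It stood at 0.136 ± 0.0858 with FLI and 0.171 ± 0.142 in controls at 4-6 cells, and at 88.5 ± 31.6 and 50.6 ± 18.6 in morulae (SD, n = 4 per group, 3 for control morulae). ZSCAN4, a transient marker of genome activation in mouse embryos, likewise averaged 103 ± 8.49 and 82.5 ± 12.8 CPM at 9-16 cells (87.6 ± 9.37 in the 3 other controls), against 0.968 ± 0.548 and 0.785 ± 0.660 at 4-6 cells and 39.5 ± 15.1 and 38.3 ± 4.00 in morulae. The oocyte growth factor GDF9 stood at 246 ± 96.3 CPM with FLI and 245.6 ± 43.1 in controls, between 603 ± 208 and 531 ± 72.3 at 4-6 cells and 0.880 ± 0.344 and 1.39 ± 0.259 in morulae. Keratin KRT18 of the later trophectoderm was still at 1.99 ± 1.13 CPM with FLI and 2.42 ± 0.670 in controls, against 453 ± 205 and 542 ± 199 in morulae. KRT8 and SOX17 were also lower than in morulae, but not all markers of later lineages were still low. GATA2 of the trophectoderm went the other way, at 515.9 ± 45.3 CPM with FLI and 420.1 ± 179 in controls. Its morula means were 79.2 and 60.7. PDGFRA of the hypoblast was already at 46.02 ± 6.22 CPM with FLI and 33.9 ± 12.2 in controls. Its morula means were 100.9 and 62.4. CDX2, a trophectoderm factor, was at 27.9 ± 4.96 with FLI and 25.7 ± 15.0 in controls. That was close to its values of 26.9 ± 3.28 and 27.2 ± 3.58 at 4-6 cells. It was also close to those of 25.6 ± 7.02 and 19.7 ± 1.93 in morulae, so CDX2 does not mark the stage here.

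A single measure of stage was built from genes that differed between control embryos of 4-6 cells and control morulae, a choice that used no 9-16 cell library. It is the mean log2 level of 4003 genes that rise minus that of 4406 genes that fall. On the 9-16 cell table FLI libraries read -1.10, -1.21, -1.12 and -1.40, and controls -0.89, -0.33, -1.47 and -1.34. All 4 FLI values lay within the control range, and control replicate 11 was the library farthest towards the morula. The group means were -1.21 ± 0.14 with FLI and -1.01 ± 0.52 in controls (exact two-sided permutation p = 0.6, adjusted p = 0.886 over 7 library measures; 70 arrangements, smallest possible p = 0.0286). Leaving out control replicate 11 moved the control mean to -1.24 ± 0.31 (exact permutation p = 0.8286, adjusted p = 0.971).

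**Figure D1:**
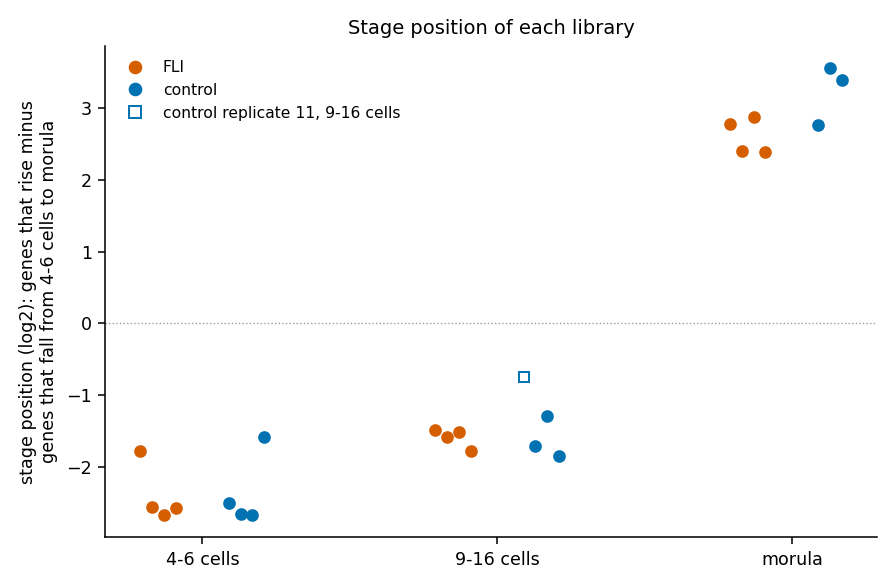
Stage position (log2, y axis) of each library at 4-6 cells, 9-16 cells and the morula stage, with FLI left of control; here it is computed on a joint scale of the 3 stages. At 9-16 cells the 4 FLI libraries lie between -1.78 and -1.49 and controls between -1.84 and -0.75, with control replicate 11 (open square) highest; the genes were chosen on the 4-6 cell and morula controls, so the distance between those stages is given by the choice.

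At 9-16 cells FLI embryos differed from controls in no gene past the threshold, a Benjamini-Hochberg adjusted p below 0.05. The limma fit on log2(value + 1) took the 14139 genes with a mean of at least 1 and called 0 (0.0%), and its smallest adjusted p was 0.910. Excluding control replicate 11 left 0 called as well (0.0%), with a smallest adjusted p of 1.0. Before adjustment 293 genes (2.07%) had p under 0.05 with all libraries and 272 (1.92%) without control replicate 11. Run on recovered reads, edgeR's quasi-likelihood test, limma-voom and DESeq2 also called 0, with 581, 436 and 663 genes past 0.05 unadjusted. The 4 FLI values lay wholly above the 4 control values in 168 genes (1.19%) and wholly below in 87 (0.615%); without control replicate 11 these counts were 284 (2.01%) and 166 (1.17%), with fewer controls to clear.

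The typical difference was small. The median size of the log2 fold change was 0.22 with all libraries and 0.13 without control replicate 11. Beyond 1 log2 unit lay 107 genes with all libraries but 15 once control replicate 11 was left out. With that library excluded, the median correlation between libraries was 0.975 across treatments and 0.973 within a treatment. In RNA from pooled embryos, fewer cells that express a gene and less RNA per cell cannot be told apart.

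TENT5A, which adds poly(A) to mRNA tails, ranked first by p (chromosome 9, 21497810 to 21504915, ARS-UCD1.2, minus strand). Its deposited values, reads per gene divided by a scaled library size, were 31.5, 24.5, 40.9 and 27.3 in FLI libraries and 11.3, 10.1, 20.4 and 12.7 in controls. The groups did not overlap, and control replicate 11 lay with the other controls. The log2 fold change was 1.15 (SE 0.27; limma adjusted p = 0.910) and 1.04 (SE 0.25; limma adjusted p = 1.0) without control replicate 11. All 24 genes ranked first in this way, 12 higher and 12 lower, had a limma adjusted p of 0.910, so none is a call.

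Several transcription regulators were among the 12 genes with a higher FLI mean and the smallest p. IRF4, a factor best known from lymphocytes, had 35.8, 19.01, 35.4 and 27.1 with FLI and 15.0, 13.2, 15.4 and 17.0 in controls. Its lowest FLI value was only slightly above its highest control value, and the controls were tightly grouped (log2 0.87, SE 0.25; 0.81 without control replicate 11). SOX12, a factor of the SOXC group, had 22.6, 20.6, 25.3 and 15.7 with FLI and 11.6, 4.53, 10.6 and 13.4 in controls. Here control replicate 11 was the lowest library, and the log2 difference was 1.07 (SE 0.32) with it and 0.76 without it. NKX3-2, a homeobox factor of skeletal development, averaged 29.5 ± 4.62 with FLI and 15.2 ± 5.09 in controls, or 17.3 ± 3.34 in the 3 other controls. ID4, which blocks DNA binding of basic helix-loop-helix factors, had 15.9, 14.1, 14.1 and 13.3 with FLI and 10.1, 6.78, 3.50 and 8.76 in controls. The FLI values were nearly equal and all above the controls, and the log2 difference of 0.96 was the same without control replicate 11. ZMYND15, a repressor of spermatid genes in mouse, was low in both groups, at 2.06 ± 0.400 with FLI and 0.559 ± 0.213 in controls (log2 0.97, SE 0.24).

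Other genes of this set have varied roles. CBLN1, a secreted synaptic organiser, had 88.6, 85.6, 97.6 and 71.0 with FLI and 60.7, 40.0, 46.9 and 50.2 in controls. It was the most abundant of the 12 per kilobase, and its groups did not overlap (log2 0.79, SE 0.22; 0.69 without control replicate 11). MID1IP1, which activates fatty acid synthesis through acetyl-CoA carboxylase, had 19.7, 24.1, 24.7 and 22.1 with FLI and 17.3, 8.88, 7.27 and 11.1 in controls. Control replicate 10 came close to the FLI range, the other controls did not (log2 1.02, SE 0.27; 0.95 without control replicate 11). BORCS6, a subunit of the complex that positions lysosomes, averaged 51.3 ± 10.1 with FLI and 27.8 ± 7.28 in controls. PPP1R18, an actin-binding partner of protein phosphatase 1, averaged 9.49 ± 1.05 and 4.98 ± 0.984, and the fibronectin-domain protein gene FNDC10 averaged 3.14 ± 1.11 and 0.994 ± 0.330. LRATD1 was the only one of the 12 whose groups overlapped: FLI libraries held 32.8 to 62.9 and controls 9.54 to 40.8. Choice by smallest p favours separate groups, which 1.19% of all genes tested had in this direction.

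Among the 12 genes with a lower FLI mean and the smallest p, 11 had no overlap between groups. Over all genes tested, FLI values lay wholly below controls in 0.615%. The 12 were chosen by p on these same values, which favours separate groups. ZNF774, a zinc finger gene, had 2.04, 1.84, 1.63 and 1.78 with FLI and 4.75, 4.77, 4.36 and 3.01 in controls. Every FLI library lay below every control, and the difference changed little when control replicate 11 was left out (log2 -0.87, SE 0.23; -0.82 without it). AKR1A1, an aldehyde reductase, had 9.37, 9.97, 11.1 and 9.95 with FLI and 14.6, 18.4, 15.1 and 17.3 in controls. GSTO1, a glutathione transferase, averaged 1.91 ± 0.229 and 4.01 ± 1.202. Both enzymes handle reactive small molecules, and their differences were -0.64 (SE 0.21) and -0.76 (SE 0.25) on the log2 scale. LCLAT1, which remodels the mitochondrial lipid cardiolipin, averaged 3.92 ± 1.16 with FLI and 8.70 ± 3.15 in controls, or 7.19 ± 1.13 in the 3 other controls. SLC44A4, a transporter of the choline transporter-like family, averaged 0.690 ± 0.319 and 2.12 ± 0.638.

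The remaining lower genes included some of low level and 1 with overlap. SFI1, which binds centrin at the centrosome, averaged 5.11 ± 0.631 with FLI and 8.76 ± 1.05 in controls. ZNF350, a zinc finger repressor, averaged 0.725 ± 0.218 and 1.86 ± 0.495, and COMMD4, of the COMM-domain family, 5.92 ± 1.08 and 12.1 ± 5.69. TMEM167B did not overlap by a narrow margin, with a highest FLI value of 2.96 and a lowest control value of 2.98. PDE6C, a cone phosphodiesterase subunit, overlapped at 10.7 to 22.0 with FLI and 18.3 to 40.2 in controls. DTX3L, a ubiquitin ligase that works with PARP9 in the interferon response, had 1.09, 0.251, 0.800 and 1.41 with FLI and 2.19, 2.53, 2.05 and 1.78 in controls.

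ISG15, a ubiquitin-like protein induced by interferon, showed the widest spread of these genes. It had 0.747, 0.503, 1.02 and 1.38 with FLI and 2.07, 57.8, 4.56 and 4.52 in controls. The groups did not overlap, but the size of the difference followed control replicate 11, with a log2 fold change of -2.19 (SE 0.72) with it and -1.27 (SE 0.29) without it. In reads, that library held 2446 of the 2582 control reads, and all FLI libraries together held 105.

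**Figure D2:**
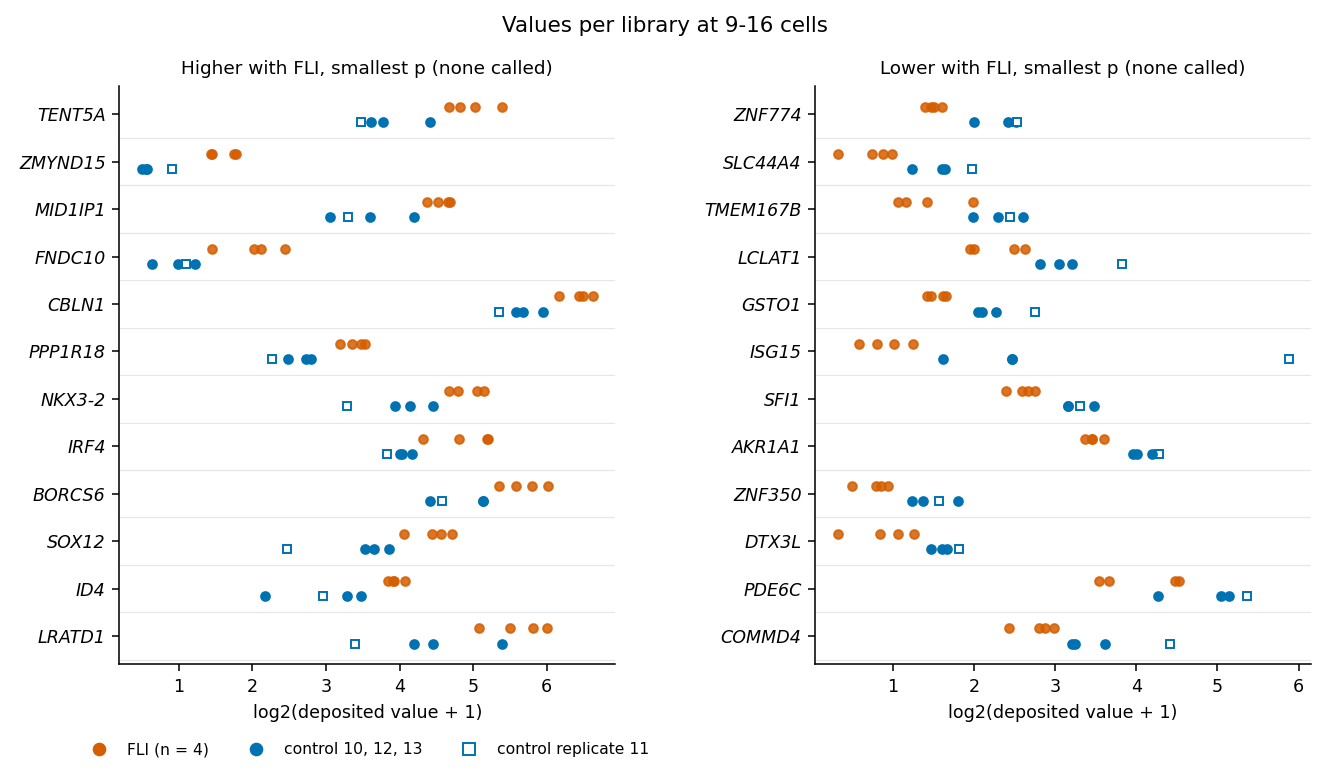
Deposited values per library, as log2(value + 1) on the x axis, for the 12 genes higher with FLI (left) and the 12 lower with FLI (right) that had the smallest p. FLI libraries (n = 4) are drawn above controls, and the open square is control replicate 11. In 11 of 12 genes on each side the 4 FLI points are clear of the control points, which choice by smallest p on these values favours. No gene had a limma adjusted p under 0.910.

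Ranking without control replicate 11 brought up 4 further genes. C7H5orf63, which carries only a systematic name, had 2.38, 1.51, 1.73 and 2.72 with FLI and 0.609, 5.88, 0.264 and 0.137 in controls. Its highest library was control replicate 11, so the log2 fold change was 0.61 (SE 0.49) with all libraries and 1.2 (SE 0.27; limma adjusted p = 1.0) without that library. NUDT7, a peroxisomal coenzyme A hydrolase, likewise had 45.0 to 79.5 with FLI and 25.5 to 32.4 in the 3 other controls, but 65.7 in control replicate 11. MYT1, a neural zinc finger factor, averaged 0.884 ± 0.106 with FLI and 2.86 ± 1.90 in the 3 other controls. SEMA6A, a transmembrane semaphorin, overlapped, with 1.36 to 15.8 with FLI and 8.92 to 34.9 in those controls.

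The authors' deposited table lists 13 of 17977 genes at a false discovery rate under 0.05 (0.0723%), 7 of them higher with FLI (0.0389%) and 6 lower (0.0334%). Its log2 fold changes run control minus FLI and are not repeated here. Of the 13, 4 had a mean of at least 1 and entered the limma fit (TENT5A, ISG15, CYP11A1 and ENSBTAG00000052892), and 9 were below it. In 8 of the 13 the 4 FLI and 4 control values did not overlap. The 13 were called on these same libraries, which favours separate groups. Of the genes in the limma fit, 1.19% were without overlap and higher with FLI, and 0.615% lower. The edgeR likelihood ratio test on the recovered reads of all 17977 genes called 8 (0.0445%), 6 of which were among the 13. It called 0 (0.0%) without control replicate 11, where 582 genes had an unadjusted p under 0.05.

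Several of the 13 rest on few reads. SOX3, a SOXB1 factor placed on an unplaced scaffold, had 0.679, 0.921, 0.672 and 0.197 with FLI and 0 in all 4 controls. That is 50 reads in all FLI libraries and 0 in all controls, at least 14.9-fold higher when the controls are set at a limit of 3 reads over the group, and at least 6.33-fold without control replicate 11, which held most control reads. KCNB2, a voltage-gated potassium channel subunit, had 58 reads over the 4 FLI libraries and 2 over the controls, both of them in control replicate 11. MGLL, the lipase that cleaves monoacylglycerols, had 1.09, 0.586, 1.63 and 1.06 with FLI and 0.122, 0.213, 0.132 and 0.137 in controls. All FLI libraries were above all controls, with 117 reads against 14. CAPN6, a calpain-family protein without protease activity, had 40 FLI reads, and the leucine-rich repeat gene LRCH2 had 44. Each had 2 control reads, all from control replicate 13, the shallowest library. ENSBTAG00000006251, which has no symbol in the table, had 42 FLI reads and 1 control read.

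Genes of the 13 that were lower with FLI had most of their control reads in control replicate 11. That library held 50644350 reads over all genes, against 7013325 to 15854919 in the other controls. Raw read splits therefore also follow depth, and do not alone show that a difference rests on this library. KEL, the Kell blood group protease, had 0 reads in every FLI library and 98 in controls, of which 77 came from control replicate 11. It was at least 36.5-fold lower with FLI, or at least 18.4-fold without that library, and control replicate 13 held 0 reads as well. BEX2, a small adaptor protein, had 0 FLI reads and 49 control reads, 37 of them in control replicate 11, at least 18.2-fold lower (10.5-fold without it). USP18, the protease that removes ISG15 from its targets, had 0, 0, 0.0320 and 0.321 with FLI and 0.365, 1.02, 0.926 and 1.37 in controls. The groups did not overlap, and the 14 FLI reads stood against 73 control reads, 30 of them outside control replicate 11. The USP18 value of 1.02 in control replicate 11 lay inside the range of the other controls, 0.365 to 1.37. ENSBTAG00000052892 held 30 FLI reads and 213 control reads, 152 of these in control replicate 11.

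For 2 genes a single FLI library held most of the reads. CYP11A1, the first enzyme of steroid synthesis, had 0, 0.168, 0.192 and 11.6 with FLI and 0.974, 7.42, 4.23 and 1.37 in controls. FLI replicate 13 was the highest of all 8 libraries while the 3 other FLI libraries were the lowest (log2 -0.89, SE 0.75; limma adjusted p = 0.910). The log2 fold change was -1.76 without that FLI library and -0.51 without control replicate 11, where DESeq2 and edgeR gave 0.43 to 0.50, of the opposite sign. TEX37, a testis-expressed gene that the likelihood ratio test called, had 0.136, 0.168, 0.0640 and 10.7 with FLI and 0 in every control. Of its 438 FLI reads, 432 came from FLI replicate 13.

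**Figure D3:**
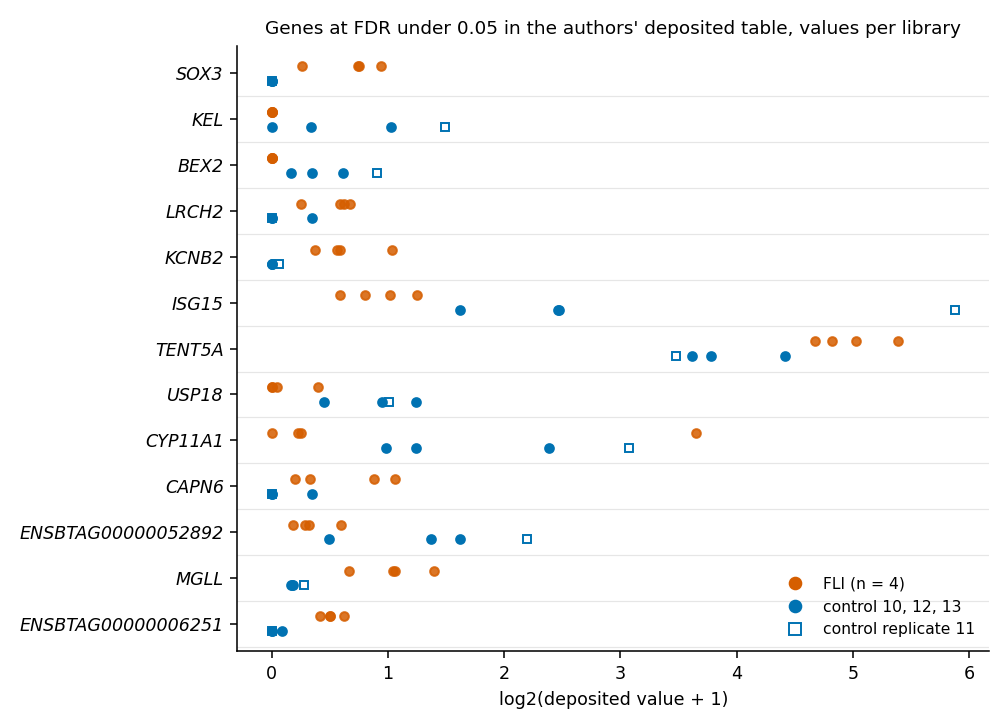
Deposited values per library, as log2(value + 1) on the x axis, for the 13 genes at a false discovery rate under 0.05 in the authors' deposited table. FLI libraries (n = 4) are above controls in each row, and the open square is control replicate 11. SOX3 is at 0 in all controls and KEL and BEX2 at 0 in all FLI libraries, and CYP11A1 has 1 FLI library at 11.6 beyond the 3 near 0.

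Response genes of the FGF-ERK pathway were mostly above 0 as differences, with a smaller shift once control replicate 11 was excluded. Of 30 tested, 24 had a log2 fold change above 0 (median 0.22), against 7203 of 14139 genes (50.9%; median 0.01). Without that library the count was 24 again with a median of 0.09, against 7487 genes (53%; median 0.01). DUSP1, an ERK-induced phosphatase that inactivates MAP kinases, was the only member of 30 whose groups did not overlap with all libraries. Of all genes tested, 1.19% had every FLI value above every control. DUSP1 was named for its small p, which favours separate groups. It had 397, 329, 553 and 374 with FLI and 260.4, 154, 190.5 and 314 in controls. The margin between FLI replicate 11 and control replicate 13 was small (log2 0.87, SE 0.27; 0.70, SE 0.21 without control replicate 11; limma adjusted p = 0.910 and 1.0).

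The immediate early factor FOSB averaged 20.8 ± 4.23 with FLI and 13.03 ± 7.21 in controls, and 15.6 ± 6.09 in the 3 other controls. MYC, a growth regulator, averaged 75.6 ± 23.6 and 47.2 ± 21.1, and 55.7 ± 15.4 in those controls. Some feedback genes of FGF signalling had lower or overlapping values. SPRY1, a Sprouty inhibitor, had 23.8, 32.5, 21.9 and 36.1 with FLI and 36.1, 20.6, 41.7 and 44.5 in controls, and the ETS factor ETV5 had 24.0, 24.4, 21.2 and 24.98 against 25.6, 14.3, 31.6 and 25.1. For both, the FLI values lay below the 3 other controls, and control replicate 11 was the lowest library of all. They were the 2 of 30 members so placed without that library, against 1.17% of all genes tested. A count of 2 is not read as a result about feedback genes. DUSP6, the cytoplasmic ERK phosphatase, had 36.9 to 58.0 with FLI and 23.2 to 42.6 in controls. SPRY1, ETV5 and DUSP6 were chosen after their values were seen.

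Of 27 LIF-STAT3 response genes 25 were above 0, with a median of 0.35, and 23 without control replicate 11, with a median of 0.17. No member separated the groups. SOCS1, the inhibitor of JAK kinases, had 95.7, 119, 118 and 64.6 with FLI and 45.1, 36.9, 84.4 and 76.5 in controls. FLI replicate 13 fell among the controls, and the other FLI libraries were above them (log2 0.74, SE 0.32; 0.53, SE 0.26 without control replicate 11). The angiogenic ligand gene VEGFA averaged 66.0 ± 19.1 with FLI and 42.4 ± 23.2 in controls. As a mean over the list, the log2 level was 5.90, 5.83, 5.99 and 5.71 with FLI and 5.64, 4.95, 5.73 and 5.70 in controls. The 3 other controls were thus close together, and 1 of them was above the lowest FLI library.

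Levels of the SOCS genes are given per kilobase of exon, as the mean over the 8 libraries with the lowest and highest library. SOCS1 was highest at 119 (54.9 to 177), followed by SOCS7 at 81.1 (20.7 to 100.1), SOCS6 at 54.4 (13.5 to 72.8) and SOCS3 at 47.2 (11.8 to 60.8). SOCS2 at 24.6 (15.3 to 32.0), SOCS4 at 20.4 (12.3 to 48.2), SOCS5 at 10.4 (7.27 to 18.1) and CISH at 1.76 (0.959 to 2.76) came below. Neighbours in this order overlapped in range, except SOCS5 and CISH. SOCS3, a main target of STAT3, had 42.6, 38.6, 39.0 and 31.6 in deposited values with FLI and 22.9, 8.29, 41.8 and 39.7 in controls. Its lowest 2 values were controls and the other 6 libraries were alike.

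The receptors for the 3 ligands were all detected. Per kilobase of exon, IGF1R was highest, at a mean of 26.8 (lowest and highest library 10.5 and 33.4), then the IGF2 scavenger receptor IGF2R at 7.72 (3.87 to 10.8) and LIFR at 3.39 (2.33 to 4.80). FGFR3 at 2.27 (0.722 to 4.16), FGFR2 at 1.97 (1.31 to 2.69) and FGFR1 at 1.87 (1.23 to 2.69) overlapped throughout. The shared cytokine receptor chain IL6ST stood at 0.922 (0.490 to 1.73), FGFR4 at 0.309 (0.0287 to 0.832) and the insulin receptor INSR at 0.264 (0.127 to 0.436). IGF1R had 139, 124, 148 and 130.2 in deposited values with FLI and 110.0, 49.3, 157 and 152 in controls. The FLI libraries lay inside the control range. Over 43 receptors and ligands tested, 24 were above 0 (median 0.02) with all libraries and 14 (median -0.03) without control replicate 11.

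Of the embryo's own transcripts for the added ligands, FGF2 averaged 12.8 ± 3.67 with FLI and 12.2 ± 1.76 in controls. LIF was at 0.370 ± 0.225 and 0.324 ± 0.492, and IGF1 at 0.112 ± 0.0884 with FLI, while 1 control (replicate 11) held 2.41 and the 3 others 0. The IGF-binding proteins IGFBP7 and IGFBP6 had the smallest p of the receptor and ligand list. IGFBP7 had 0.407, 0.670, 2.40 and 9.85 with FLI and 4.32, 38.1, 2.31 and 9.04 in controls, a range of more than 1 order of magnitude within each group. IGFBP6 averaged 0.336 ± 0.367 with FLI and 1.84 ± 2.31 in controls, or 0.697 ± 0.451 in the 3 other controls.

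FOXO targets, which AKT restrains, had 17 of 22 members above 0 (median 0.09) with all libraries and 12 (median 0.02) without control replicate 11. GADD45B, a growth arrest and stress gene, had 85.5, 86.9, 118 and 90.2 with FLI and 76.5, 40.1, 61.7 and 76.7 in controls. It was the only member of 22 without overlap (log2 0.60, SE 0.26; 0.40, SE 0.20 without control replicate 11; limma adjusted p = 0.910 and 1.0). Of all genes tested, 1.19% were so placed, and 2.01% without control replicate 11. GADD45B was named for its small p, which favours separate groups. FOXO3 averaged 290.3 ± 49.7 with FLI and 222 ± 70.8 in controls, and FOXO1 averaged 610.4 ± 109 and 474 ± 166. In the 3 other controls they averaged 255 ± 30.7 and 556 ± 25.6.

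Genome activation genes had 23 of 34 members above 0, with medians of 0.12 with all libraries and 0.13 without control replicate 11. As a mean over the list, the log2 level was 6.7063, 6.41, 6.67 and 6.53 with FLI. In controls it was 6.7135, 6.28, 6.23 and 6.49, so the groups overlapped and control replicate 10 was highest by a narrow margin. ZNF217, a zinc finger factor, had 142, 91.9, 127 and 98.8 with FLI and 82.5, 45.9, 91.0 and 90.6 in controls. Its groups did not overlap, although FLI replicate 11 exceeded control replicate 12 by less than 1 unit (log2 0.59, SE 0.27; 0.36 without control replicate 11). HSPA1A, the inducible HSP70, averaged 453 ± 73.7 with FLI and 309 ± 97.2 in controls, again without overlap. Near-identical HSP70 genes can share its reads, so the value is uncertain. ZNF217 and HSPA1A were the 2 of 34 members without overlap, with or without control replicate 11. FLI values lay wholly above controls in 1.19% of all genes tested, and in 2.01% without that library. Both were named for a small p, which favours separate groups, so the count is not read as a result about genome activation. Maternal transcripts had 20 of 45 members above 0 (median -0.03), and 19 (median -0.05) without control replicate 11. FIGLA, an oocyte transcription factor, averaged 10.03 ± 1.82 with FLI and 12.7 ± 1.03 in the 3 other controls, against 46.4 in control replicate 11. UCHL1, a ubiquitin hydrolase, averaged 9.10 ± 4.53 with FLI and 22.6 ± 21.0 in controls, but 12.2 ± 4.24 in the 3 other controls. NLRP2, of the NLR family of oocyte proteins, averaged 42.3 ± 10.3 with FLI and 58.3 ± 14.7 in controls.

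Enzymes of DNA methylation and histone modification had 36 of 48 members above 0 (median 0.23), and 35 (median 0.14) without control replicate 11. Every FLI library lay above every control in 3 of 48 members, and also in 3 without that library. Over all genes tested the share was 1.19%, and 2.01% without it. A count of 3 is not read as a result about these enzymes. The acetyltransferase CREBBP and the H3K4 methyltransferase SETD1B were among the 3 and were chosen after their values were seen. CREBBP had 568, 531, 594 and 564 with FLI and 507, 286, 485 and 528 in controls. SETD1B had 236, 210.1, 285 and 198 with FLI and 163, 24.3, 198 and 188 in controls, where control replicate 11 was far below the rest and FLI replicate 13 equalled control replicate 12 to 3 digits. HDAC6, a cytoplasmic deacetylase, averaged 23.7 ± 2.79 with FLI and 16.3 ± 4.68 in controls, the H3K4 methyltransferase KMT2D averaged 148 ± 26.4 and 91.9 ± 45.9, and the co-repressor TRIM28 averaged 175 ± 56.8 and 114 ± 31.5.

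**Figure D4:**
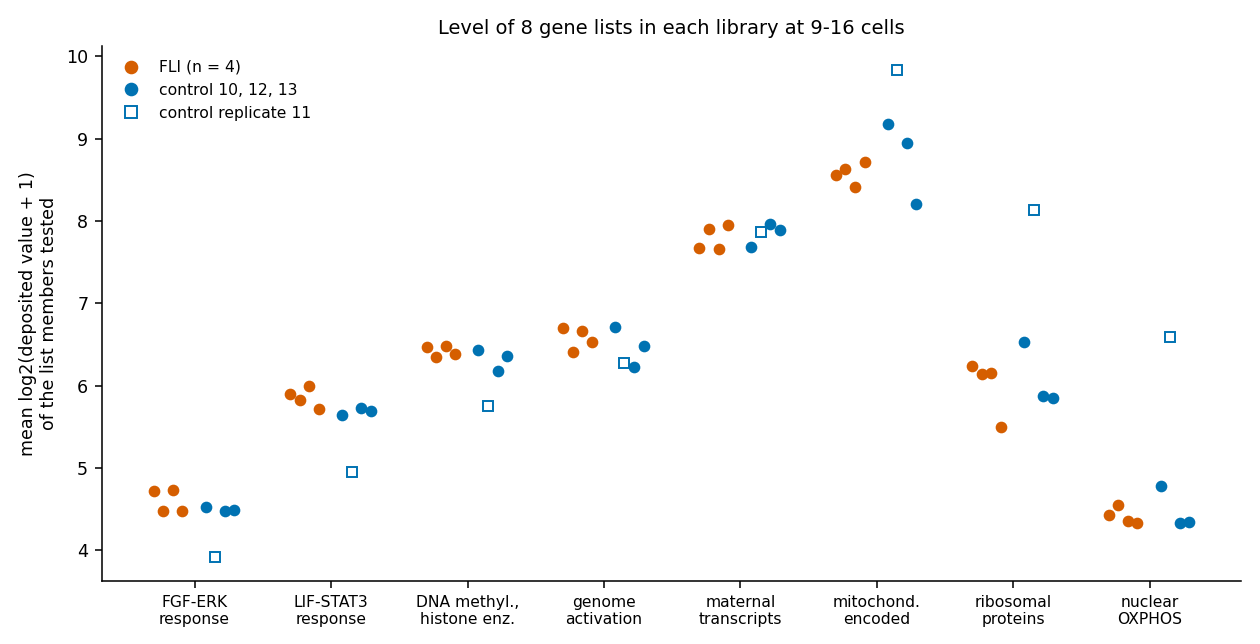
Mean log2(deposited value + 1) of the tested members of 8 gene lists (y axis) in each library, FLI left of control for each list. Control replicate 11 (open square) lies below the other libraries for FGF-ERK and LIF-STAT3 response genes and chromatin enzymes, and above them for mitochondrially encoded, ribosomal protein and nuclear oxidative phosphorylation genes.

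Ribosomal protein and respiratory chain transcripts were the lists that changed most with the choice of libraries. Of 77 cytosolic ribosomal protein genes 2 were above 0 (median -0.59) with all libraries, and 27 (median -0.04) without control replicate 11. Nuclear genes of oxidative phosphorylation had the same counts, 2 of 77 (median -0.65) and 27 (median -0.03). RPL38, of the large subunit, had 19.1, 16.8, 18.2 and 11.7 with FLI and 33.9, 193, 18.4 and 16.6 in controls. Control replicate 11 was more than 5 times any other library, and the FLI values were around those of controls 12 and 13. RPL22 and RPS27 averaged 1.76 ± 1.07 and 13.3 ± 4.32 with FLI and 5.48 ± 5.92 and 44.3 ± 51.5 in controls. In the 3 other controls they averaged 2.52 ± 0.293 and 18.8 ± 9.43.

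NDUFS6 and NDUFB1, both subunits of complex I, were the 2 of 77 members of the respiratory list without overlap between groups. Over all genes tested, FLI values lay wholly below controls in 0.615%, and in 1.17% without control replicate 11. A count of 2 is not read as a result about complex I. NDUFS6 had 5.97, 7.45, 5.85 and 4.91 with FLI and 11.7, 29.5, 7.80 and 7.67 in controls. NDUFB1 had 5.97, 7.12, 4.57 and 7.13 with FLI and 9.56, 90.7, 9.06 and 8.90 in controls. In both, all FLI libraries lay below all controls with or without control replicate 11 (log2 -0.91, SE 0.38, and -1.31, SE 0.61, with all libraries; -0.50, SE 0.25, and -0.51, SE 0.24, without it), and neither was called (limma adjusted p = 0.910 and 1.0). NDUFA5, of the same complex, averaged 1.55 ± 0.578 with FLI and 10.8 ± 15.3 in controls, or 3.31 ± 3.35 in the 3 other controls.

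Transcripts of the mitochondrial genome kept a lower FLI median without control replicate 11, at -0.20 (0 of 13 above 0), against -0.48 (1 of 13) with all libraries. Their share of reads was 0.796%, 0.884%, 0.746% and 0.844% with FLI and 1.22%, 1.48%, 1.13% and 0.621% in controls. Control replicate 13, the shallowest library, was the lowest of all, and the other controls, replicate 11 included, were above every FLI library. The mean shares were 0.818% ± 0.0596 with FLI and 1.11% ± 0.360 in controls (exact two-sided permutation p = 0.143, adjusted p = 0.886), and 0.990% ± 0.324 in controls without replicate 11 (exact permutation p = 0.314, adjusted p = 0.971). COX2 of complex IV had 338, 379, 314 and 331 with FLI and 586, 1185, 455 and 281 in controls, with control replicate 11 highest and control replicate 13 lowest. The complex I subunits ND6 and ND3 averaged 158 ± 36.5 and 59.6 ± 11.3 with FLI and 291 ± 202 and 200 ± 249 in controls. In the 3 other controls they averaged 193 ± 59.7 and 76.4 ± 29.8.

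**Figure D5:**
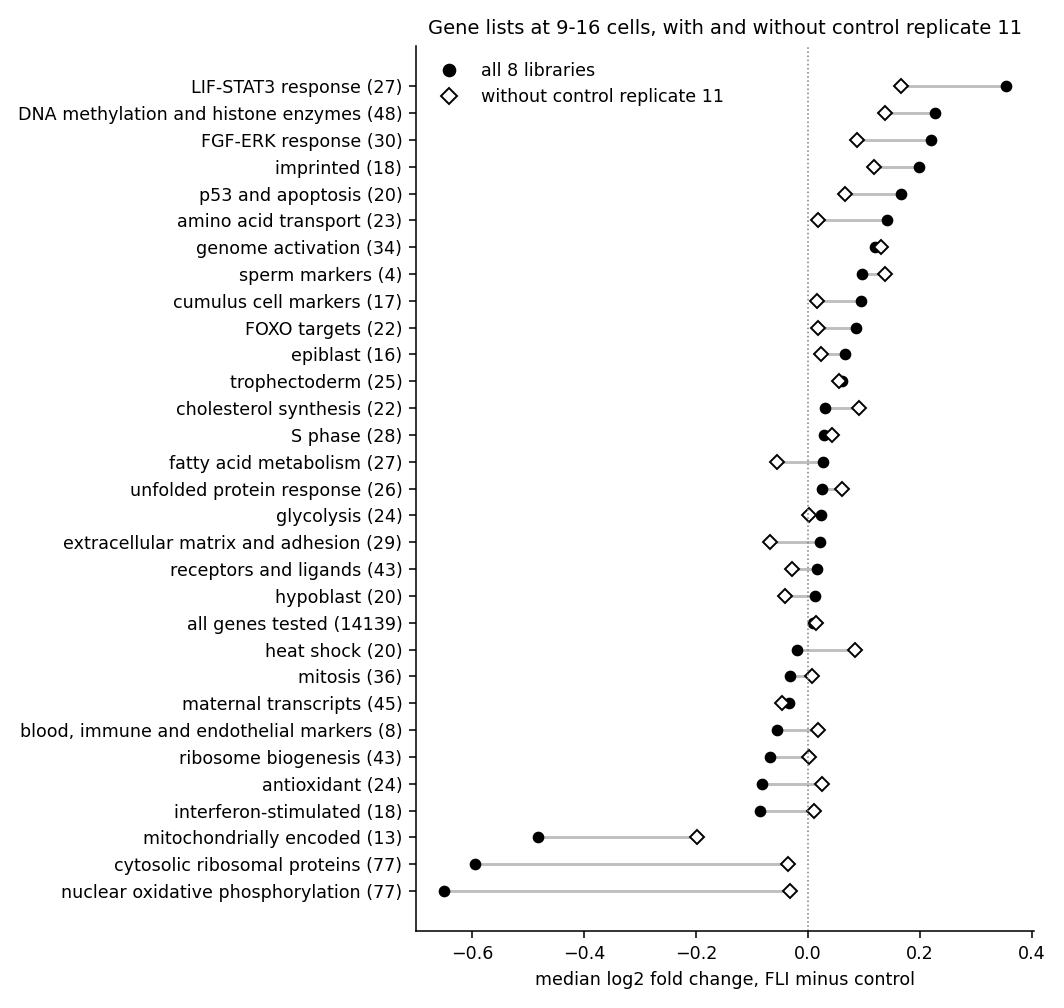
Median log2 fold change (FLI minus control, x axis) of 30 gene lists and of all genes tested, with the number of members tested in brackets. Filled circles use all 8 libraries and open diamonds leave out control replicate 11; the medians of ribosomal protein and oxidative phosphorylation genes are -0.59 and -0.65 with it and near 0 without it, while the genome activation median is 0.12 and 0.13.

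Of all 30 lists, 20 had a median above 0 with all libraries and 22 without control replicate 11, and 8 moved by more than 0.1. Lineage genes showed little difference. Epiblast markers had 11 of 16 above 0 (median 0.07; 8 and 0.02 without control replicate 11), and KLF4, a pluripotency factor, averaged 885 ± 152 with FLI, 633 ± 207 in controls and 730.0 ± 90.1 in the 3 other controls. The repressor gene PRDM1 averaged 36.3 ± 3.50 and 27.5 ± 10.2, and KLF17 had 754, 489, 824 and 568 with FLI and 774, 118, 401 and 659 in controls. Trophectoderm markers had 15 of 25 above 0 (median 0.06), and 16 (median 0.06) without control replicate 11. Among them CLDN7, a tight junction protein, averaged 6.29 ± 1.10 with FLI and 4.71 ± 0.247 in the 3 other controls, and TFAP2C, a trophectoderm factor, 517 ± 84.6 and 424 ± 123. CGN, the tight junction adaptor cingulin, averaged 6.95 ± 1.44 and 9.38 ± 0.633. Hypoblast markers had 11 of 20 above 0 (median 0.01; 8 and -0.04 without control replicate 11), with AMN, an endocytic receptor partner, at 1.23 ± 0.720 and 2.64 ± 1.07, the endoderm factor SOX17 at 3.55 ± 0.760 and 2.26 ± 1.41, and the WNT enhancer RSPO3 at 4.95 ± 1.79 and 8.99 ± 6.35 (5.85 ± 1.06 in the 3 other controls).

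Metabolic lists were centred close to 0. Glycolysis had 13 of 24 above 0 (median 0.02), cholesterol synthesis 12 of 22 (median 0.03) and fatty acid metabolism 14 of 27 (median 0.03). Excluding control replicate 11 gave 12 (median 0.0026), 13 (median 0.09) and 11 (median -0.06) in these 3 lists. Amino acid transport had 17 of 23 above 0 (median 0.14; 14 and 0.02 without control replicate 11). The glucose transporter SLC2A3 averaged 1358 ± 129 with FLI, 994 ± 440.4 in controls and 1148 ± 385 in the 3 other controls. SLC2A1, the other glucose transporter, averaged 105 ± 36.0 and 70.1 ± 31.3, and the aldolase gene ALDOC 107 ± 30.7 and 71.0 ± 18.4. In cholesterol synthesis, mevalonate kinase MVK averaged 9.86 ± 2.51 with FLI and 12.8 ± 1.65 in controls, and the regulator SREBF2 163 ± 19.3 and 130.3 ± 46.1. ACSL3, a fatty acyl-CoA ligase, averaged 41.1 ± 14.7 and 53.7 ± 2.43, and FABP3, a fatty acid carrier, 151 ± 26.7 and 269.8 ± 195 (173 ± 37.3 in the 3 other controls). Among transporters, the creatine carrier SLC6A8 averaged 190.4 ± 40.2 and 124 ± 65.0, SLC38A2 averaged 4.67 ± 3.28 and 2.34 ± 1.38, and SLC7A3 averaged 65.0 ± 14.5 and 79.6 ± 16.9.

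In the stress lists, every FLI value lay above every control in 2 of 20 heat shock genes and 1 of 24 antioxidant genes. The unfolded protein response and p53 lists held 0 such genes, and all genes tested 1.19%. Without control replicate 11 these lists held 2, 1, 2 and 0, and all genes 2.01%. Counts this small are not read as a result about stress genes. Heat shock genes had 8 of 20 above 0 (median -0.02), and 12 (median 0.09) without control replicate 11. BAG3, a co-chaperone of HSP70, had 81.9, 74.5, 79.2 and 65.9 with FLI and 31.6, 39.6, 60.0 and 65.0 in controls. FLI replicate 13 cleared the highest control by less than 1 unit (log2 0.66, SE 0.26; 0.58 without control replicate 11), and HSPA2, a testis-enriched HSP70, averaged 275 ± 42.5 and 215 ± 53.1. Antioxidant genes had 9 of 24 above 0 (median -0.08; 13 and 0.03 without control replicate 11). GSS, glutathione synthetase, had 17.0, 16.0, 18.6 and 16.6 with FLI and 11.4, 13.6, 15.9 and 12.05 in controls, again a narrow separation. The peroxiredoxins PRDX5 and PRDX2 averaged 43.2 ± 7.49 and 294 ± 90.6 with FLI and 50.5 ± 6.52 and 329.6 ± 20.3 in the 3 other controls.

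Unfolded protein response genes had 15 of 26 above 0 (median 0.03; 18 and 0.06 without control replicate 11). HERPUD1, which aids degradation of misfolded proteins, averaged 27.1 ± 6.31 with FLI and 16.7 ± 3.67 in controls, PPP1R15A, a phosphatase subunit that restores translation, 369 ± 73.8 and 284 ± 62.1, and the chaperone partner SDF2L1 31.6 ± 6.90 and 50.7 ± 31.7. The p53 and apoptosis list had 16 of 20 above 0 (median 0.17), and 13 (median 0.07) without control replicate 11. The cell cycle inhibitor CDKN1A averaged 26.7 ± 2.82 with FLI and 19.9 ± 3.89 in controls, and PHLDA3, a p53-induced inhibitor of AKT, 7.98 ± 3.38 and 5.54 ± 3.08. S phase genes had 15 of 28 above 0 (median 0.03) and mitosis genes 17 of 36 (median -0.03), and 17 (median 0.04) and 18 (median 0.01) without control replicate 11. CCNE1, the S phase cyclin, averaged 209.7 ± 34.96 and 154 ± 63.2. E2F1 averaged 511 ± 68.0 and 382 ± 220.0, with control replicate 11 at 83.3, and the licensing factor CDT1 averaged 107 ± 27.4 and 85.1 ± 31.2. The checkpoint kinase genes BUB1B and TTK averaged 24.1 ± 5.49 and 20.8 ± 10.3 with FLI and 40.1 ± 14.4 and 38.1 ± 26.8 in controls, and TTK averaged 24.7 ± 2.12 in the 3 other controls. The phosphatase CDC25B averaged 291 ± 57.1 with FLI and 205 ± 102 in controls. Ribosome biogenesis genes had 15 of 43 above 0 (median -0.07; 22 and 0.00 without control replicate 11). The nucleolar proteins NOP16, FBL and DDX21 averaged 34.3 ± 7.52, 177 ± 41.7 and 199 ± 5.38 with FLI. In controls they averaged 67.5 ± 57.0, 253 ± 125 and 420 ± 426, and in the 3 other controls 40.9 ± 24.9, 196 ± 64.6 and 209.8 ± 75.7.

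Interferon-stimulated genes had 7 of 18 above 0 (median -0.09) with all libraries and 10 (median 0.01) without control replicate 11. IFI27 had 0, 2.18, 3.04 and 4.29 with FLI and 3.83, 71.6, 3.37 and 10.4 in controls, with overlap. IFI44 pointed the other way, at 2.78, 2.18, 4.13 and 6.34 with FLI and 1.95, 2.13, 1.39 and 2.19 in controls. Imprinted genes had 12 of 18 above 0 (median 0.20; 10 and 0.12 without control replicate 11). PEG3, a paternally expressed zinc finger gene, had 19.1, 13.7, 16.9 and 16.9 with FLI and 10.3, 10.3, 13.6 and 13.6 in controls, and RTL1 and the growth inhibitor CDKN1C averaged 4.19 ± 0.767 and 77.0 ± 25.4 with FLI and 2.20 ± 1.72 and 51.3 ± 9.91 in controls. PEG10, a retrotransposon-derived gene, had 31.8, 31.5, 39.7 and 35.9 with FLI and 26.96, 14.9, 30.9 and 30.5 in controls. PEG3 and PEG10 were without overlap, each by a margin of less than 1 unit. They were the 2 of 18 imprinted genes so placed, with or without control replicate 11. Over all genes tested, FLI values lay wholly above controls in 1.19%, and in 2.01% without that library. A count of 2 is not read as a result about imprinted genes. Extracellular matrix and adhesion genes had 19 of 29 above 0 (median 0.02; 11 and -0.07 without control replicate 11). The cadherin CDH2 averaged 2.71 ± 3.07 and 5.42 ± 4.03, integrin ITGB1 82.4 ± 16.5 and 109 ± 27.8, and integrin ITGAV 8.52 ± 7.90 and 4.08 ± 0.934, its FLI mean raised by 20.3 in FLI replicate 13.

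Summed markers of other cells overlapped between the groups, and their part in the results was not tested. Of 21 cumulus cell markers 17 were tested, and their summed value was 485 to 572 in FLI libraries and 383 to 565 in controls. The collagen COL1A1 averaged 110.5 ± 36.4 with FLI and 74.9 ± 43.1 in controls, and follistatin FST 1.73 ± 0.856 and 5.09 ± 5.77 (2.29 ± 1.64 in the 3 other controls). Of 17 sperm markers 4 were tested, with a summed value of 75.5 to 110.3 in FLI libraries and 70.5 to 97.6 in controls. ODF2, a centrosome and sperm tail protein, averaged 45.7 ± 8.60 with FLI and 37.4 ± 3.58 in controls, the acrosomal ACRV1 5.70 ± 0.460 and 8.80 ± 6.58 (5.63 ± 2.17 in the 3 other controls), and the sperm glycolytic enzyme GAPDHS 3.58 ± 0.966 and 3.22 ± 0.897. Of 17 blood, immune and endothelial markers 8 were tested, with a summed value of 143 to 168 in FLI libraries and 124 to 191 in controls. The receptors KDR and CD14 averaged 48.8 ± 7.48 and 9.498 ± 2.36 with FLI and 38.3 ± 4.37 and 7.46 ± 2.68 in controls. VWF, a clotting factor carrier, averaged 33.5 ± 4.05 with FLI and 33.2 ± 7.93 in the 3 other controls.

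The 10 most abundant transcripts of these embryos did not separate the groups, with or without control replicate 11. The largest mean belonged to a short locus annotated as a microRNA, bta-mir-2887-2 on chromosome 2, which is counted here with the rRNA fragments. Its values were 42795, 66364, 39224 and 45492 with FLI and 35469.7, 1254, 54954 and 43991 in controls, where replicate 11 alone was low. TMSB4X, an actin-sequestering peptide, had 4452, 6933, 6604 and 7496 with FLI and 6652, 40554, 6032 and 7065 in controls. The mitotic kinase AURKA, CKS2 and PTTG1 (both cell cycle regulators) and BTG4, which directs maternal mRNA decay, likewise had their highest value in control replicate 11. TACC3, a spindle protein, averaged 3941 ± 481 and 3667 ± 549.8, and ACCSL 3042 ± 215 and 2789.8 ± 771.

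Other library measures did not differ between groups beyond the spread of replicates, with adjusted p of 0.886 for all 7 (0.971 without control replicate 11). Genes detected at 1 CPM numbered 13907, 13977, 13988 and 13846 with FLI and 13948, 14042, 14017 and 13769 in controls (difference -14.5; exact permutation p = 0.857). The 100 most abundant genes took 21.0% ± 1.58 of reads with FLI and 21.8% ± 2.48 in controls (exact permutation p = 0.657).

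The last question is whether the FLI effect at 9-16 cells differed from that at the neighbouring stages, tested as an interaction on jointly normalised CPM. Against 4-6 cells, limma gave 0 calls in 13880 genes (0.0%); unadjusted, 80 had p below 0.05, 82 without control replicate 11, and 73 by edgeR's quasi-likelihood test, which also called 0. The smallest p belonged to CBLN1, at 90.3 ± 11.7 CPM with FLI and 51.3 ± 9.23 in controls at 9-16 cells, against 1.57 ± 0.579 and 2.36 ± 0.255 at 4-6 cells (log2 1.23, SE 0.29; limma adjusted p = 1.0). IRF4 was at 30.9 ± 8.39 and 15.7 ± 1.79 CPM, against 2.09 ± 0.369 and 2.95 ± 0.717 at 4-6 cells. ADCY5, an adenylate cyclase, was at 18.7 ± 2.40 and 11.1 ± 3.10 CPM, against 16.5 ± 1.44 and 22.8 ± 4.98. CBLN1 and IRF4 were thus low at 4-6 cells in both groups.

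Against the morula, limma gave 0 calls in 14097 genes (0.0%); unadjusted, 1045 had p below 0.05, 2972 without 9-16 cell control replicate 11 (0 called), and 762 by edgeR's quasi-likelihood test, which also called 0. That fit leaves out morula control replicate 4 for its depth. Without morula control replicate 7 it called 61 genes, 56 of them with a higher effect at 9-16 cells, so 1 library of the other stage decides this count. The 3 smallest p-values belonged to genes near 0 at 9-16 cells. S100A5, a calcium-binding protein, was at 0.200 ± 0.0288 CPM with FLI and 0.0776 ± 0.119 in controls, against 146 ± 46.6 and 609.6 ± 289 in morulae (control n = 3; limma adjusted p = 0.598). In deposited values, 1 of its 9-16 cell controls, replicate 11, held 0.283 and the 3 others averaged 0.0220 ± 0.0382. SLC44A4 was at 0.613 ± 0.297 and 1.84 ± 0.608 CPM, against 58.2 ± 11.8 and 31.4 ± 8.60. A2M, a protease inhibitor, was at 0.0786 ± 0.0539 and 0.323 ± 0.191 CPM, against 24.7 ± 19.2 and 4.76 ± 1.30.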

How the data were processed

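RNA-seq libraries of pooled 9-16 cell bovine embryos were compared, 4 with FLI and 4 controls. Per the submitters' processing notes, FastQC, HISAT2, featureCounts and edgeR were used with build ARS-UCD1.2; no source used here gives versions, strand setting or filters. Without strand, overlapping and antisense genes cannot be told apart. The authors deposited, per gene, a signal (reads divided by a scaled library size), with log2 fold changes, a likelihood ratio score, p-values and false discovery rates, per the file headers. Dividing each column by its smallest positive value gave whole reads (within 0.001). 2881 of 17977 genes lack a symbol. Coordinates are the table's.

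limma 3.58.1 (trend, robust) was run on log2(value + 1) for genes with a mean of at least 1, and edgeR 4.0.16 and DESeq2 1.42.0 on recovered reads, with Benjamini-Hochberg adjustment over all genes tested. Scripts were tested on simulated counts. Fold changes on this scale understate those of low genes. Library measures used exact permutation tests. Interactions used reads normalised jointly by TMM. Named genes were, by smallest limma p, 12 per direction with all libraries, 5 without control replicate 11, 3 per list and 3 per interaction, plus the 10 most abundant, SOCS genes, receptors and called genes. Members, lists, rules and alternatives were chosen with earlier results of these data known. Alternatives changed the pseudocount, filter, tool, scaling, replicate block and libraries. Some genes that these rules name are not reported here.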

Additional observations from a re-analysis of the deposited data

Results flagged for a closer look

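Among 374 sets of 4 values (7 library measures, the levels of 30 gene lists and the named genes, each in FLI or control libraries), 56 had 1 library far from the other 3, with a gap to the nearest divided by the range above Dixon's 95% critical value. For independent, normally distributed sets chance gives about 1 in 20. These sets share the same 8 libraries, and many genes were named by their values, so that rate is no standard for the count here.

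Control replicate 11 was that library in 34 sets. It was high for short minus long genes (0.876) and the level of antioxidant genes (0.951). It was high for the abundant TMSB4X (0.97), AURKA (0.945), BTG4 (0.88), CKS2 (0.884) and PTTG1 (0.834), for the ribosomal and mitochondrial RPL22 (0.955), RPL38 (0.902), RPS27 (0.839), NDUFB1 (0.992) and ND3 (0.899), and for ISG15 (0.955), IFI27 (0.897), C7H5orf63 (0.918), ZMYND15 (0.836), KCNB2 (1.0) and MGLL (0.833). The same held for FIGLA (0.941), IGFBP6 (0.834), DDX21 (0.836), RSPO3 (0.846), PRDX2 (0.929), TTK (0.93) and SLC7A3 (0.926). It was low for the levels of FGF-ERK (0.929) and LIF-STAT3 (0.894) response genes, FOXO targets (0.831), receptors and ligands (0.885) and p53 genes (0.859), and for HSPA1A (0.925), FOXO1 (0.857), CLDN7 (0.856) and ACCSL (0.839).

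FLI replicate 13 was high for CYP11A1 (0.983), TEX37 (0.99), USP18 (0.9), CDH2 (0.959), ITGAV (0.892), SOCS4 (0.903), SOCS5 (0.92), ACSL3 (0.868), CKS2 (0.923) and PTTG1 (0.87), and for the levels of receptors and ligands (0.858) and S phase genes (0.858). It was low for FBL (0.897) and the level of ribosomal protein genes (0.871). FLI replicate 10 was high for SEMA6A (0.875) and IGFBP6 (0.871), and FLI replicate 12 for GADD45B (0.851). Control replicate 13 was high for CDKN1A (0.948) and was the only control above 0 for CAPN6 and LRCH2 (1.0 each). Control replicate 10 was low for GAPDHS (0.853) and the only control above 0 for ENSBTAG00000006251 (1.0). KCNB2 and the 3 genes with a single control above 0 named here rest on 1 or 2 control reads.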

How the results depend on the processing

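Under every alternative run on the comparison at 9-16 cells, 0 genes were called, except by the edgeR likelihood ratio test on all genes, which called 8 (5 higher) and 0 without control replicate 11. With 1 library left out at a time the count stayed at 0 to 0, with 130 (without FLI replicate 12) to 720 (without control replicate 12) genes at an unadjusted p under 0.05, and array quality weights gave 0 called and 1902. Same-numbered deviations correlated at 0.285, 0.075, 0.143 and 0.063 with all libraries, not all above 0.1, so the numbers were not taken as pairs; without both libraries numbered 11 they correlated at 0.178, 0.124 and 0.239, each best with its own number, a hint from the data and not the design. The replicate block called 0 genes with all libraries (441 unadjusted) and 0 without both libraries numbered 11 (392 unadjusted). The interaction with 4-6 cells had 0 called throughout, and that with the morula 0 to 61, the highest without morula control replicate 7. Genes detected at 5 CPM differed by 35.8. With single libraries left out, differences ranged from -72.8 to 18.2 genes detected, -3.16 to 12.1 in total reads (in units of 1e6), -1.57 to 0.27 percentage points for the most abundant genes, -0.34 to 0.0026 for short minus long genes and -0.35 to 0.031 for stage position. Signs of small uncalled differences turned under array quality weights for ND3 (0.13), NOP16 (0.19), FBL (0.052), SDF2L1 (0.088), ACRV1 (0.29) and VWF (0.073), and under the replicate block without both libraries numbered 11 for DDX21 (0.00185), CDT1 (-0.046) and ACRV1 (0.088). CYP11A1 turned without control replicate 11 by DESeq2 (0.43), the edgeR likelihood ratio test (0.48) and quasi-likelihood test (0.50), and so did ACRV1 (0.017 and 0.012 by edgeR, 0.064 by limma with or without the filter) and VWF (0.0046 by DESeq2, 0.031 and 0.023 by edgeR, 0.031 by limma). With single libraries left out ACRV1 ranged from -0.62 to 0.064, VWF from -0.63 to 0.031 and GAPDHS from -0.048 to 0.24; GAPDHS was -0.048 without control replicate 10 and -0.00167 without FLI replicate 11. The cause was not tested. The depth of control replicate 13, the shallowest library, limits genes with few reads.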
